A study of Homo sapiens with 14 samples.

Results

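Some guides of a pooled CRISPR interference screen are filed under an Ensembl transcript instead of a promoter number, and those guides are described here. Their names carry a start label that begins with ENST, such as ENST00000369158.1, where most names carry P1P2. The rule on the name, which uses no count, took 7095 of the 91463 guides in sublibraries H1, H2, H3, H5, H6 and H7, or 7.76%. These formed 1434 targets (1 gene symbol with 1 start label) of 1233 genes. Guides labelled P1P2 were the comparison, with 70309 guides in 14177 targets. None of the 1233 genes also had a start of another kind (0 genes).

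The screen, in a human embryonic kidney line, read how much of a tagged delta opioid receptor (DOR) remained after an agonist. HEK293 FLP-In cells, which hold a docking site for a transgene, made DOR fused to the peroxidase APEX2. Cells expanded clonally from this line also carried the repressor dCas9-KRAB-BFP, were transduced at a multiplicity near 0.2 with the library hCRISPRi-v2-top5, and were kept in 0.75 µg/ml puromycin for 3 days from day 2. On day 8 all of them received the opioid peptide DADLE at 10 µM for 90 minutes and then Amplex UltraRed with peroxide, which APEX2 turns into a fluorescent dye. The 12 groups were the brightest quartile (top) and the dimmest quartile (bottom) of each of the 6 sublibraries, 1 library per group. No sort was repeated and no library came from unstimulated cells, so a ratio has no replicate check and cannot tell receptor loss after DADLE from any other change in dye.

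CRISPR interference silences a gene when a guide brings dCas9-KRAB close to where transcription really starts, and a guide placed away from the used start does little. In the published design of this library, P1 and P2 are promoters ranked in capped-RNA data from many cell types, and transcript names were used for genes without such a promoter. Genes with no mapped promoter are often those silent in most tissues, such as olfactory receptors, or members of recently duplicated families whose copies share sequence.

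The library gave each start 5 guides, and 1323 of the 1434 transcript-named targets kept 5, 105 kept 4 and 6 kept 3 after guides with fewer than 50 counts in both libraries were removed. That filter took out 42 guides and left 7053, and 9 guides were listed in 1 library of their pair only. A single transcript stood in 1309 of the labels, and 99, 17, 8 and 1 labels joined 2, 3, 4 and 5 transcripts. One such start was listed for 1070 genes, and 132, 26, 3 and 2 genes had 2, 3, 4 and 5 of them. The members were spread unevenly: they were 19.1% of targets in H6 (494) and 10.8% in H7 (426), but 6.78% in H5 (169), 4.03% in H3 (134), 3.76% in H1 (96) and 3.58% in H2 (115). Olfactory receptors made up 331 of the 494 in H6.

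Library totals ran from 18054418 counts in H6 bottom to 34636612 in H2 top, and the median member guide had 1168 to 2157.5 counts in the top libraries and 1408 to 1701 counts in the bottom libraries. Counts of PCR reads without molecular identifiers carry more error than counting alone. The value of a guide was log2(top/bottom), each count raised by 1 and divided by its library total, minus the median of the 241 to 308 non-targeting guides of its sublibrary. A positive value means that cells with the guide had a larger share of the bright quartile than of the dim quartile. The SD of non-targeting guides was smallest in H3 (0.215) and largest in H7 (0.333). The guides of a target were averaged, with their SD as the error, and a target was called by a two-sided permutation test against non-targeting guides with Benjamini-Hochberg adjusted p at or under 0.05 over all 18116 targets. Such a p compares guides within the libraries of 1 sort.

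Guide sequences were not used here, and no source used here gives the genome build of the guide positions. The upstream sequences below come from RefSeq (GRCh38.p14), each 250 bases ending before the annotated start and read 5′ to 3′ on the strand of the gene. Of the 1233 genes, 947 (76.8%) matched an entry, under the 80% needed for a comparison of composition over the members, so none was made. Capitals mark CG dinucleotides, which are dense at promoters used in most tissues. The genes are the pair of members with the largest positive values among those called, the copy of one of them that the library reaches through a P1P2 start, and an olfactory receptor that holds the lowest guide of all members.
HIST2H3C, chr1:149841209-149841458, minus strand, 14 CG: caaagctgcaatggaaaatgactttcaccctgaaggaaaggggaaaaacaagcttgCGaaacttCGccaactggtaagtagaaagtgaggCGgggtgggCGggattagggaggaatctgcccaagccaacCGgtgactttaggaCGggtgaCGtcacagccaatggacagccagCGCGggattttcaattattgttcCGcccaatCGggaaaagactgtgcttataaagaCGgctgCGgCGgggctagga
HIST2H3A, chr1:149852358-149852607, plus strand, 14 CG: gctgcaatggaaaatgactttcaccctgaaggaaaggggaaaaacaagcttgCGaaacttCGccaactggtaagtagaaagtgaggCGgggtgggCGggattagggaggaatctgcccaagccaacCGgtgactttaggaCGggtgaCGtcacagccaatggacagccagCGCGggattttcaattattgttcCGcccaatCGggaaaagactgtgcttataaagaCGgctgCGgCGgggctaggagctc
SCLY, chr2:238060751-238061000, plus strand, 31 CG: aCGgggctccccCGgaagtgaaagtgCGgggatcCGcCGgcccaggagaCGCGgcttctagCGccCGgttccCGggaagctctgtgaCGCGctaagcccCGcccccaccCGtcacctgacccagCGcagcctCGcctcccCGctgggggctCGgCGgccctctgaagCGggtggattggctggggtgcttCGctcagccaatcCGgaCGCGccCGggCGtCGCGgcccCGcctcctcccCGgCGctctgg
OR51F1, chr11:4769939-4770188, minus strand, 0 CG: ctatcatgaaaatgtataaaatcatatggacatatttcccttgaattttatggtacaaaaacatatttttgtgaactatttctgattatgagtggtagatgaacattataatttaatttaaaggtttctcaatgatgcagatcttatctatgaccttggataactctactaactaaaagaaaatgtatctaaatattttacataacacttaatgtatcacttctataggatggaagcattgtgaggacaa
The HIST2H3C and HIST2H3A sequences were identical at 246 of 246 bases when shifted by 4 bases. RefSeq lists these genes as H3C14 and H3C15, and both names of the files are kept here.

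Guides at transcript-named starts seldom separated bright from dim cells. Of the 1434 targets, 3 were called (0.209%), 2 higher in top (HIST2H3C and SCLY) and 1 higher in bottom (EIF3CL), while 3.91% of all 18116 targets were called, 2.39% higher in top and 1.52% higher in bottom. Among the P1P2 targets 631 of 14177 were called (4.45%), 394 higher in top and 237 higher in bottom. P2 targets, with 13 of 1229 called (1.06%), and 47 targets with RefSeq-named starts, with 0 called, also lay under the 3.91%. At an unadjusted permutation p under 0.05 stood 94 transcript-named targets (6.56%) and 1891 P1P2 targets (13.3%), against 12.3% of all targets. Targets past a mean of 0.5 from 0 with at least 80% of guides on that side, a count that needs no test, numbered 3 transcript-named targets (HIST2H3C, SCLY and GRAP) and 419 P1P2 targets (2.96%), against 2.55% of all targets.

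Over sublibraries, each a separate sort of different guides, the lower share of calls held in 6 of 6. The transcript-named and P1P2 shares were 1.04% and 2.81% in H1, 0% and 6.63% in H2, 1.49% and 8.14% in H3, 0% and 6.57% in H5, 0% and 1.50% in H6, and 0% and 0.663% in H7. H6 and H7, which hold most of the members, were also the sublibraries with the lowest P1P2 shares. The mean difference, transcript-named minus P1P2, was -3.96 ± 2.93 percentage points (SD, n = 6 sublibraries), with an exact sign-flip permutation p of 0.03125, the smallest that 6 pairs allow, and 0.0547 after adjustment over the 7 measures compared. The difference was -2.46 ± 1.84 points for calls higher in top and -1.51 ± 1.12 points for calls higher in bottom, each lower in 6 of 6 with the same exact p and adjusted p. None of the 7 adjusted values was at or under 0.05. Without the farthest guide of every target the difference in calls was -1.87 points (P1P2 calls 291). That setting trims the targets but not the non-targeting draws, so fewer calls follow in part from its design. With guides as blocks, edgeR called 2 of 1323 transcript-named and 233 of 13380 P1P2 targets (0.151% and 1.74%).

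The members' values also lay closer to 0 than those at P1P2 starts, a trait that P2 targets shared. Over all targets of a kind, the median distance from 0 was 0.0792 for members, 0.0883 for P1P2 and 0.0727 for P2. The 149 members that share guides of identical counts with another target, described below, had 0.0496. The other 1285 members had 0.0834, nearer to the P1P2 value. All guides lay on the same side of 0 in 8.44% of members and 7.08% of P2 targets. The median distance of target means from 0 was 0.0768 ± 0.0092 for transcript-named targets and 0.0883 ± 0.0062 for P1P2 targets (SD over 6 sublibraries), lower in 6 of 6 (exact permutation p = 0.03125, adjusted p = 0.0547). Means 0.3 or more from 0 were found for 48 transcript-named targets (3.35%), 23 above and 25 below 0, and for 1214 P1P2 targets (8.56%), 745 above and 469 below. No transcript-named target reached 1.0, against 110 P1P2 targets. Targets whose guides were all on the same side of 0 made up 7.78 ± 2.50% of transcript-named targets and 11.3 ± 1.99% of P1P2 targets (SD over 6 sublibraries), lower in 5 of 6 sublibraries (exact permutation p = 0.0938, adjusted p = 0.131).

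The values of single guides are given as a description. The SD of log2(top/bottom) over guides was 0.283 for transcript-named, 0.364 for P1P2, 0.281 for P2 and 0.263 for non-targeting guides. Values of 1 or more were held by 47 of the 7053 member guides (0.666%), against 1.44% of P1P2 and 0.432% of non-targeting guides. Values of -1 or less were held by 26 member guides (0.369%), against 0.715% of P1P2 and 0.185% of non-targeting guides. Of these 73 far member guides, in 71 genes, 33 (45.2%) had fewer than 400 counts in both libraries together, and the median of the 73 was 452 counts, against 3238 for all member guides.

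HIST2H3C, a gene for replication-dependent histone H3, had the largest mean of all transcript-named targets. Its 5 guides in sublibrary H3 had 1572, 2036, 1298, 2791 and 1924 counts in H3 top, against 1026, 1135, 547, 1076 and 888 counts in H3 bottom. Every guide had more counts in top, with log2 values of 0.42, 0.65, 1.05, 1.18 and 0.92 after centring. Over these 5 guides the mean was 0.84 ± 0.31 (SD), which is 1.79-fold in favour of top, with a permutation adjusted p of 6.94e-04, the smallest the draws could give. The guides lie on chromosome 1 between positions 149812308 and 149812766 of the files, which cannot be set against the GRCh38.p14 coordinates above.

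HIST2H3A, the copy with the identical upstream sequence, was measured in another sublibrary and another sort, and its guides were also higher in top. HIST2H3A has a P1P2 start with 5 guides in H5, and each lies at the mirror position of a HIST2H3C guide on the opposite strand: the paired positions add up to 299636944 in 5 of 5 pairs. The HIST2H3A guides, in the order of their HIST2H3C partners, had 607, 1139, 740, 2646 and 1846 counts in H5 top, against 497, 1033, 449, 1632 and 1082 counts in H5 bottom. Their log2 values were 0.59, 0.45, 1.02, 1.00 and 1.07, with a mean of 0.83 ± 0.29 (SD, n = 5 guides) and a permutation adjusted p of 6.94e-04. Paired guides differed by 0.025 to 0.20 between the sorts, with a median of 0.17. In both sorts the 3 guides that lie together at one end of the target had higher values than the other 2. Whether paired guides share the same sequence was not tested, so the values cannot be assigned to HIST2H3C or HIST2H3A alone.

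Histone genes of the same region ranged from near 0 to a call in the same direction. HIST2H2AA3, a histone H2A gene with a transcript-named start in H5, had a mean of 0.28 ± 0.47 (SD, n = 5 guides, permutation adjusted p = 0.238), and its copy HIST2H2AA4, at a P1P2 start, had 0.49 ± 0.42 (SD, n = 5 guides) and was called (permutation adjusted p = 0.0197). Of their guides 3 were mirrored about the same constant and carried identical counts, so those values are not separate measurements. One of the shared guides had 2977 counts in top and 1695 in bottom, a log2 of 1.12, and the other shared guides were at 0.09 and 0.14. HIST2H3D, a further histone H3 gene of that region, had 0.02 ± 0.45 (SD, n = 5 guides).

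SCLY, selenocysteine lyase, which frees selenium from selenocysteine for reuse, was the other call higher in top. Its 5 guides in H1 had 1655, 2035, 2159, 5267 and 1213 counts in H1 top, against 600, 906, 1034, 2550 and 894 counts in H1 bottom. All guides lay above 0, at 1.15, 0.85, 0.74, 0.73 and 0.12. Over these 5 guides the mean was 0.72 ± 0.37 (SD), which is 1.65-fold in favour of top, with a permutation adjusted p of 0.00244. Without the guide farthest from 0 in every target, the SCLY mean was 0.61 and the call was lost (permutation adjusted p = 0.0561). The non-targeting draws were not trimmed in that setting, so the lost call does not by itself show dependence on 1 guide. The SCLY guides lie on chromosome 2 between positions 238969756 and 238969978, and the label joins 2 transcripts. UBE2F, a ubiquitin-family (NEDD8) conjugating enzyme that neighbours SCLY, had -0.21 ± 0.38 at its P1P2 start in H3 (SD, n = 5 guides, permutation adjusted p = 0.333).

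EIF3CL, a near-copy of the translation initiation factor gene EIF3C, was the call higher in bottom, and it is named because it is 1 of 3 calls. Its guides in H3 had 1795, 1156, 921, 2607 and 2345 counts in H3 top, against 1508, 1906, 1355, 2187 and 2294 counts in H3 bottom. The guides split, with -0.92 and -0.75 at 2 of them and 0.06, 0.06 and -0.16 at the others. Over these 5 guides the mean was -0.34 ± 0.46 (SD), which is 1.27-fold in favour of bottom, with a permutation adjusted p of 0.0446. EIF3C itself, at a P1P2 start in the same sort, had -0.00 ± 0.10 (SD, n = 5 guides) and was not called. The EIF3CL call was lost in 4 of 14 alternative settings, among them edgeR's quasi-likelihood test (adjusted p = 0.523).

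Several members lay just outside the threshold. GRAP, an adaptor of receptor tyrosine kinase signalling, had the lowest mean of all members, -0.77 ± 1.20 (SD, n = 4 guides, permutation adjusted p = 0.0504). Its guides in H7 had 1309, 702, 10 and 2010 counts in top, against 1357, 881, 62 and 2063 counts in bottom. The guide with 10 and 62 counts was at -2.56 and the others were between -0.37 and -0.08, so 1 sparse guide set the mean. Its copy GRAPL had 0.28 ± 0.27 at a P1P2 start (SD, n = 5 guides).

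TAS2R39, a bitter taste receptor, had -0.41 ± 0.34 (SD, n = 5 guides, permutation adjusted p = 0.0511), with 2045, 531, 229, 3137 and 483 counts in H6 top, against 1994, 480, 341, 2496 and 502 counts in H6 bottom. All 5 guides lay below 0 once scaled to the library totals and centred. MRGPRX4, a Mas-related G protein-coupled receptor, had 0.42 ± 0.31 (SD, n = 5 guides, permutation adjusted p = 0.0577), with 4922, 2638, 2047, 2368 and 1260 counts in H6 top, against 3419, 1059, 1274, 1298 and 808 counts in H6 bottom. All 5 of its guides lay above 0. SEMA3D, a secreted axon guidance factor, had 0.37 ± 0.55 (SD, n = 5 guides, permutation adjusted p = 0.0560), with 3 of 5 guides above 0.

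Olfactory receptors, which detect odours in sensory neurons of the nose, were the largest family among the members. None of the 354 targets of 348 genes was called, by the permutation test or by edgeR. An unadjusted permutation p under 0.05 was held by 19 (5.37%). These shares were near the 0.209% called and 6.56% under 0.05 among all members. Over all targets the shares were 3.91% and 12.3%, and over all targets of H6, which held 331 of the 354, 1.20% and 9.19%. The olfactory receptor median was -0.01, against 0.01 over all targets. Of the 354, 168 lay above and 186 below 0, and 8 were 0.3 or more from 0. The lowest, OR51F1, at -0.56 ± 1.35 (SD, n = 5 guides, permutation adjusted p = 0.195), rested on the guide with 17 counts in H6 top and 107 in H6 bottom, a log2 of -2.98. Its other 4 guides were between -0.01 and 0.14. OR5R1 had -0.46 ± 1.05 (SD, n = 5 guides), again with a single guide far from 0, at -2.31 on 25 and 97 counts in top and bottom.

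The other receptor and secreted-protein families had 0 calls each, which lists of 3 to 36 targets cannot set apart from the members' share of 0.209%. The share over all targets was 3.91%. Among 26 taste and vomeronasal receptor targets the median was -0.02, and TAS2R41 followed TAS2R39 with -0.29 ± 0.17 (SD, n = 5 guides). Among 13 interferon targets, the antiviral cytokines, the median was 0.04 and the range ran from -0.20 in IFNA6 to 0.21 in IFNA7. The 18 defensin targets, antimicrobial peptides, had a median of 0.01, with DEFB136 at 0.30 and DEFB105A at -0.26. The 36 keratin and keratin-associated targets, proteins of epithelia and hair, had a median of -0.03, with KRTAP5-11 at -0.39. The 3 protocadherin targets had a median of -0.10, with PCDHB1 at -0.22.

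Cancer-testis antigens, which are silent outside the germ line and some tumours, had 33 targets and a median of 0.02. XAGE1B had -0.39 ± 0.24 with all 5 guides below 0 (SD, permutation adjusted p = 0.214), and PRAMEF7 had 0.33 ± 0.43 at one start (SD, n = 5 guides). The 41 zinc finger targets had a median of 0.02, with ZNF469 at 0.31 ± 0.43 (SD, n = 5 guides). The 52 targets of uncharacterised open reading frames had a median of -0.02, 8 solute carrier targets -0.10 and 9 targets with hyphenated symbols, mostly readthrough genes, 0.02. These lists too had 0 calls each, with the same limit, beside 3.91% of all targets.

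Histones, the proteins that package DNA, held 1 call (HIST2H3C) among 33 members, against 4 among 54 P1P2 histone targets and 3.91% of all targets. Their median was 0.07, against 0.01 over all targets, with 22 above and 11 below 0, and 5 (15.2%) had an unadjusted p under 0.05, against 12.3% of all targets. By class the medians were 0.06 for 8 histone H2A targets, 0.12 for 5 H2B, 0.04 for 10 H3 and 0.01 for 10 H4 targets. HIST1H4A, at 0.31 ± 0.77 (SD, n = 5 guides), held a guide at 1.67 on 332 counts in H5 top and 128 in H5 bottom. HIST1H2AL was the lowest histone, at -0.38 ± 0.44 (SD, n = 5 guides, permutation adjusted p = 0.0595), with 308, 334, 240, 253 and 124 counts in H5 top, against 503, 395, 394, 330 and 323 counts in H5 bottom.

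Machinery that carries many of the screen's calls was hardly present among the members. Of the 27 gene lists compared, 11 had 0 transcript-named targets: the V-ATPase, proteasome, chaperonin, ESCRT, heme synthesis, DNA replication, mRNA decay, core splicing, rRNA processing, aminoacyl-tRNA synthetase and mitochondrial ribosome lists. Those 11 lists held 311 P1P2 targets, of which 126 were called (40.5%). These were 20.0% of the P1P2 calls, and outside those lists 505 of 13866 P1P2 targets were called (3.64%). The lists were chosen with earlier results of these data known, so their share of calls is a description and not a test.

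A few respiratory-chain or trafficking genes did have transcript-named starts, and none of those named here was called. NDUFA9, a subunit of respiratory complex I, had 3768, 2538, 3130 and 4328 counts in H1 top, against 1428, 1645, 2197 and 3196 in H1 bottom, and a mean of 0.43 ± 0.44 (SD, n = 4 guides, permutation adjusted p = 0.170). All 4 guides lay above 0. With no filter on counts its remaining guide entered, and the mean of 1.13 was called (permutation adjusted p = 0.00671). That guide had fewer than 50 counts in both libraries, so the higher mean rests on 1 sparse guide. COMMD5, of the endosomal Commander complex, had 1284, 4411, 1337, 3140 and 1476 counts in H2 top, against 1634, 4591, 1372, 2678 and 1105 in H2 bottom, and a mean of -0.30 ± 0.29 (SD, n = 5 guides, permutation adjusted p = 0.0993). CCZ1B, a copy of the endosomal Rab7 activator subunit CCZ1, had -0.13 ± 0.37 (SD, n = 5 guides).

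Several of the farthest guides stood alone in their target. The farthest of all, a BTN1A1 guide (butyrophilin of milk fat) with 741 counts in H6 top and 45 in H6 bottom, was at 3.62, while its target had a mean of 0.69 ± 1.64 with only 2 of 5 guides above 0 (SD, permutation adjusted p = 0.177). In H5 a FOXD4L1 guide was at 1.98 on 2234 and 698 counts in top and bottom, and the target's mean was 0.46 ± 0.87 (SD, n = 5 guides). In H2 a TMSB15B guide was at -1.72 on 809 and 2093 counts in top and bottom, and that target's mean was -0.36 ± 0.78 (SD, n = 5 guides). None of the 3 targets was called.

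Of the 163 genes with several transcript-named starts, none had a called start (0 of 364 targets). The shares called were 0.209% of all members and 3.91% of all targets, and 0 of 364 cannot be set apart from the members' share. The median difference between the highest and the lowest start of a gene was 0.13, and 3 genes differed by 0.5 or more. TBC1D29 had 0.17 ± 0.27 at one start (SD, n = 4 guides) and -0.53 ± 1.04 at the other (SD, n = 5 guides), the lower resting on a guide with 12 counts in H7 top and 65 in H7 bottom. DLGAP1, a postsynaptic scaffold, had 0.36 ± 0.90 (SD, n = 4 guides) and -0.25 ± 0.27 (SD, n = 5 guides). GOLGA8A had 0.25 ± 0.84 and -0.36 ± 0.27 (SD, n = 5 guides each). In 16 of the 163 genes starts shared guides.

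Targets that carry the same counts as another target were frequent among the members. Of the 1434 targets, 149 (10.4%) shared at least 2 guides of identical counts with another target of their sublibrary, against 98 P1P2 targets (0.691%), and in 62 members every guide was such a copy. They form 100 pairs with one another or with targets of another kind, 80 of different genes and 20 of starts of 1 gene. Examples with 5 identical guides are the complement genes C4A and C4B (mean 0.09), the creatine kinases CKMT1A and CKMT1B (0.17) and the testis histones H2AFB1, H2AFB2 and H2AFB3 (0.04). The deposited counts are the same number under each name, so these targets are not separate measurements. Each name was still counted as a target in the main shares, medians and tests. In a setting without targets with copied guides, chosen after seeing the data, 3 of 1285 members (0.233%) were called. Of the P1P2 targets 628 of 14079 (4.46%) were called there. Whether the guide sequences are identical was not tested. None of the 149 was called, which cannot be set apart from the members' share of 0.209%. Among all targets 3.91% were called, and 5 of the 98 P1P2 targets with copied guides were called. The 149 had a median distance from 0 of 0.0496, against 0.0834 for the other 1285 members. Their median abundance was 0.85, against -0.06 for the other members.

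Some positions were read in the sorts of more than 1 sublibrary. After identical copies were merged, 17 guide positions at transcript-named starts carried counts in both of 2 sublibraries. Their values differed between sorts by a median of 0.20 and at most 1.28, 10 of 17 had the same sign, and none was 0.5 or more from 0 in both. The largest gap was at GIMAP1, an immune GTPase, whose guide had 1561 counts in H3 top and 1492 in H3 bottom (-0.13) but 315 in H7 top and 815 in H7 bottom as a guide of GIMAP1-GIMAP5 (-1.41).

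Span and strand of the guides were close to those at P1P2 starts, while neighbouring guides were fewer. The guides of a target spanned a median of 387 bases at transcript-named starts and 405 bases at P1P2 starts, and 49.98% and 49.7% of guides were on the plus strand. Guides of another gene lay within 1000 bases of 54 members (3.77%) and of 1533 P1P2 targets (10.8%). Within that distance no member had a called neighbour (0 targets), while HIST2H2AA3 lay just beyond it from HIST2H3C, which was called. Labels that join several transcripts held 2 calls (SCLY and EIF3CL) in 125 targets (1.6%). Labels with a single transcript held 1 call (HIST2H3C) in 1309 targets (0.0764%). Both shares lay under the 3.91% of all targets, and 3 calls are too few to set the label types apart.

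Abundance in the sorted cells, top and bottom summed, was taken relative to non-targeting guides on the log2 scale. No unsorted or starting library was used here, so a guide that slowed growth and one that was rare in the library cannot be told apart. The median abundance of transcript-named targets exceeded that of P1P2 targets by 0.076 ± 0.15 (SD, n = 6 sublibraries), higher in 5 of 6 (exact permutation p = 0.25, adjusted p = 0.292). An abundance of -1 or less was seen in 5.29 ± 5.08% of transcript-named and 5.77 ± 3.43% of P1P2 targets (SD, n = 6 sublibraries, exact permutation p = 0.844 for the difference).

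H5 stood apart among the sublibraries. There 25 of 169 transcript-named targets (14.8%) were at -1 or less, against 5.57% of P1P2 targets, and 6 of the 25 were among its 16 replication-dependent histone members. In H6 the shares were 3.85% and 9.77%, and in H7 they were 6.57% and 9.58%. The lowest abundances were those of HIST1H2AL (-2.30), NANOGNB (-1.94), OR51F1 (-1.93), TXNRD3NB (-1.91) and ZNF80 (-1.91). HIST1H2BI (-1.85) and HIST1H3E (-1.67) were also among the lowest, and none of these genes was called. HIST2H3C and SCLY, the members higher in top, were at -0.32 and -0.28.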

How the data were processed

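The authors deposited whole-number counts per guide for the top and bottom quartile of each sublibrary, with no normalization. Per the submitters' processing notes Bowtie was used; no source used here gives its version or the genome build. Guides unlisted in 1 library of a pair were taken as 0. Samples were grouped by title; H4 was not used.

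From the deposited counts, log2(top/bottom) was computed with a pseudocount of 1, scaled to library totals and centred on non-targeting guides. Guides needed 50 counts in either library and targets 3 guides. The main test drew 100000 random guide sets from a target's own and non-targeting guides (Python 3.11.15, NumPy 2.4.6). edgeR 4.0.16, with guides as blocks on targets with 5 guides, was an alternative, because single libraries leave no residual degrees of freedom per guide. The code was tested on simulated data. Transcript-named and P1P2 targets were compared over 6 sublibraries by exact sign flips.

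Members, gene lists and the rule for named genes were chosen with earlier results of these data known. The rule names called targets with 80% of guides on one side, up to 2 list members farthest from 0 and genes whose starts differ most. Other named genes, EIF3CL among them, were chosen after their values were seen. Alternatives changed the pseudocount, filter, scale, centring, summary, test and adjustment, and left out targets. Chromosomes and RefSeq symbols come from GRCh38.p14 tables. Some results are not reported here.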

Additional observations from a re-analysis of the deposited data

How the results depend on the processing

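HIST2H3C was called in 14 of 14 alternative settings, with means from 0.76 to 0.92, and SCLY in 13 of 14. EIF3CL was called in 10 of 14. It was lost with the median over guides, without the farthest guide, by the exact rank-sum test and with edgeR. Transcript-named targets called higher in top numbered 4 with no filter and with the median over guides, and 1 without the farthest guide, against 2. Those called higher in bottom numbered 2 with a pseudocount of 5 or 0.5 and with the median over guides, 4 when centred on all guides and when adjusted within sublibraries, and 0 without the farthest guide, by the rank-sum test and with edgeR, against 1. Targets past the size numbered 4 higher in top and 2 higher in bottom with no filter. They numbered 0 higher in bottom with at least 200 summed counts, with the median over guides and without the farthest guide. The count of P1P2 calls was 291 without the farthest guide and 233 with edgeR, against 631. Leaving out the farthest guide trimmed each target but not the non-targeting draws it was tested against. Calls lost in that setting follow in part from its design and do not by themselves show dependence on 1 guide. In every one of the 14 settings the share of transcript-named targets called, 0.0697% to 0.488%, lay under that of P1P2 targets, 1.74% to 4.67%. Among named genes not called in the report, GRAP, TAS2R39, SEMA3D, MRGPRX4, HIST1H2AL, DUXA, PGA4 and NDUFA9 were called in 13 combinations of gene and setting, with NDUFA9 farthest from 0 (1.13, no filter). For these changes the cause was not tested.

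The paired difference in percent called stayed below 0 in 10 of 10 settings, from -4.06 to -1.87 points, with adjusted p from 0.0547 to 0.146. Leaving out 1 sublibrary gave -4.62 to -3.43 points for calls, -2.88 to -2.07 higher in top, -1.74 to -1.28 higher in bottom, -0.013 to -0.0087 for the median distance from 0, 0.046 to 0.13 for abundance and -4.42 to -2.57 points for guides on one side. The difference in targets at an abundance of -1 or less changed sign. It was 0.44 points without copied targets, a setting chosen after seeing the data, 0.042 without olfactory receptors, 0.60 without H6, 0.020 without H7 and -2.43 without H5, against -0.48. Leaving out genes with a start of another kind removed 0 genes.

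The comparison over sublibraries pairs the start kinds of each sort, and no sort was repeated, so pairing by replicate number was not available for top against bottom. The p-values of single targets hold no spread between sorts. Guides with fewer than 400 summed counts set several of the far values.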
